A study of Drosophila melanogaster with 2 samples.

Results

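The genes of the Drosophila proteasome, 48 of 13968 protein-coding genes, were examined for peaks of tHMG1. They were chosen by symbol: every protein-coding gene whose Ensembl symbol begins with Prosalpha, Prosbeta, Rpn or Rpt and then a number. Of these, 32 encode the general subunits, and 16 are paralogs whose symbol carries an added T or R. The rule itself uses the symbol alone, and it was proposed with earlier results of these data known. Chromatin immunoprecipitation followed by sequencing (ChIP-seq) had been carried out with an anti-GFP antibody on sonicated chromatin of whole adult male flies of unknown age, from a transgenic line that stably carries CG7045 (tHMG1) with GFP at its C terminus. The data are 2 biological replicates, numbered 1 and 3 in the labels, which form 1 group with no contrast between conditions. A control experiment named in the labels was not analysed here.

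The proteasome is the protease that degrades ubiquitin-tagged proteins in the cytoplasm and nucleus. Its core particle is a barrel of alpha and beta rings, with the proteolytic sites on the inner faces of the beta rings. A regulatory particle caps the barrel: its base holds a ring of Rpt ATPases, scaffold subunits and ubiquitin receptors, and its lid holds the Rpn11 deubiquitinase and the subunits that brace it. In Drosophila many subunits have a duplicate gene, and many of the duplicates named with a T or R are known from other work for expression in the male germ line, where some replace their general counterpart late in sperm formation. tHMG1 is an HMG-box protein, of a class that binds and bends DNA, and is named for the testis. Chromatin of the whole animal was used, so the share of germ-line cells in it is unknown, the testis label of the paralogs could not be checked against expression, and occupancy in more cells and stronger occupancy per cell cannot be told apart.

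Peaks of tHMG1 lay at the promoters of many general subunit genes and of few of their paralogs. A gene was counted as having a peak when a peak's summit lay within 500 bp of any of its transcription start sites (TSSs). In the authors' IDR list (irreproducible discovery rate, a procedure that sets a cutoff from how well replicates rank the same peaks), which holds the 4574 strongest peaks of the pooled list, 11 of 32 general subunit genes had a peak (34.4%, exact binomial 95% interval 18.6 to 53.2%), against 0 of 16 paralogs (0 to 20.6%) and 21.4% of all protein-coding genes. In the authors' pooled list of 30000 peaks, which includes background, the counts were 26 of 32 general subunit genes (81.3%, interval 63.6 to 92.8%), 2 of 16 paralogs (12.5%, interval 1.55 to 38.4%) and 55.8% of all protein-coding genes. The intervals treat genes as independent draws and cover the counting of genes only. The share of general subunits thus stood above the share of all genes in both lists, and the share of paralogs below it. In the IDR list, however, the 21.4% lies inside the interval of the general subunits and close to the upper limit for the paralogs, 20.6%. The genes were chosen with earlier results known, so the intervals are not a test of either difference. Taken as a single set of 48 genes, the family was near the background, with 11 peaks in the IDR list (22.9%) and 28 in the pooled list (58.3%).

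**Figure D1:**
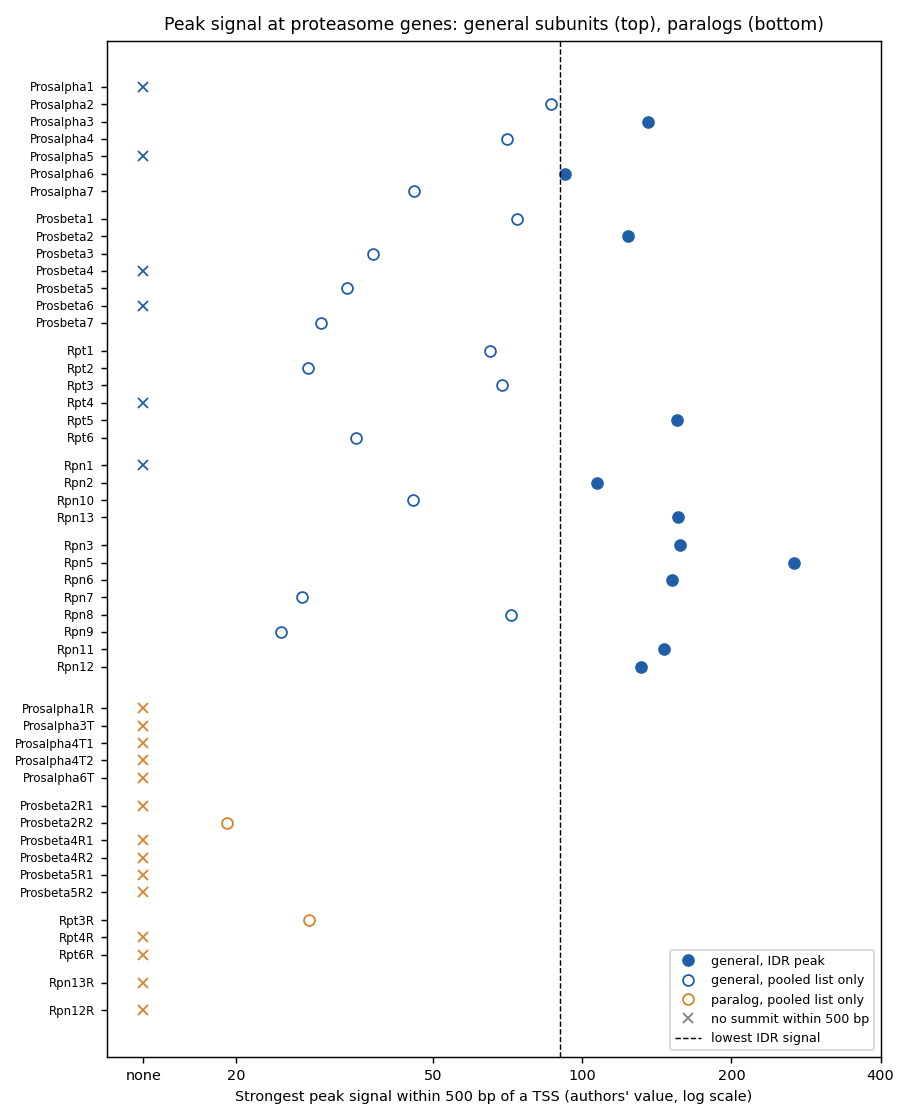
Strongest peak signal within 500 bp of a TSS in the pooled list, on a log scale, for each of the 32 general subunit genes (upper rows, blue) and 16 paralogs (lower rows, orange), grouped by alpha ring, beta ring, ATPases, other base subunits and lid. Filled circles are peaks also in the IDR list, crosses at the left mark genes without a summit, and the dashed line is the lowest signal in the IDR list, 90.3. All 11 filled circles are general subunits, and 14 of the 16 paralogs are crosses.

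The same split was visible in the distance to the nearest summit of the pooled list. The median distance was 102 bp for general subunit genes (range 2 to 4975 bp), 5020 bp for paralogs (range 15 to 18633 bp) and 291 bp for all protein-coding genes. In the IDR list the medians were 2777.5 bp for general subunits, 33367 bp for paralogs and 6729 bp for all genes. Within 3000 bp of the most upstream TSS, 28 general subunit genes together had 88 pooled summits, of which 25 were in the IDR list, against 5 pooled summits at 3 paralogs, none of them in the IDR list. A pooled summit within this distance was thus found at 87.5% of general subunits, 18.8% of paralogs and 75.6% of all protein-coding genes, and the mean number per gene was 2.75 for general subunits, 0.313 for paralogs and 2.16 for all.

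**Figure D2:**
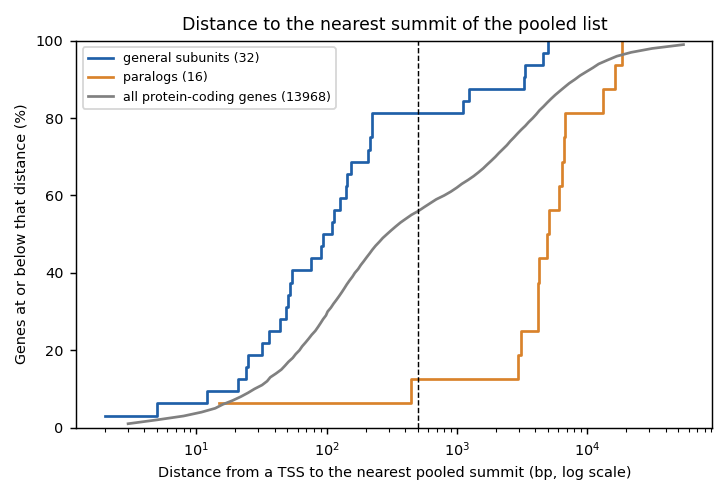
Cumulative share of genes (vertical axis, %) by distance from a TSS to the nearest pooled summit (horizontal axis, bp, log scale), for 32 general subunit genes (blue), 16 paralogs (orange) and 13968 protein-coding genes (grey), with a dashed line at 500 bp. The blue line has reached 81.3% and the orange line 12.5% at 500 bp, on either side of the grey line at 55.8%.

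Promoters of some members are shown as sequence, to let a general subunit be read beside its own paralog. Each is up to 120 bases that end just before the most upstream TSS, cut where an annotated exon began, from the RefSeq copy of the Release 6 assembly (dm6), printed 5' to 3' on the gene's strand. Capitals mark matches to any of the 8 short motifs that were searched, on either strand. Prosalpha6, a subunit of the alpha ring with an IDR peak, is shown from chr2L:10221231-10221350 on the plus strand, and its paralog Prosalpha6T, with none, at chr2L:13231919-13232038 on the plus strand. Prosbeta2, the subunit with trypsin-like activity and an IDR peak, is shown from chr3L:14999831-14999950 on the plus strand. Its paralogs are Prosbeta2R1 at chrX:5808834-5808953 on the plus strand and Prosbeta2R2 at chr3R:5219529-5219648 on the minus strand. Rpn12 of the lid, with an IDR peak, is shown from chr3L:16582908-16583027 on the plus strand, and its paralog Rpn12R at chr3L:15042571-15042690 on the minus strand. Rpn2, the base scaffold subunit, whose IDR summit falls inside the printed stretch, is shown from chr3R:29153404-29153523 on the plus strand. The IDR summits of Prosalpha6, Prosbeta2 and Rpn12 lay outside their printed stretches, 141, 223 and 143 bp upstream of the TSS. Those of Prosalpha6 and Prosbeta2 were nearer to the starts of Npc1a and mRpL39. Prosbeta6, a general subunit of the beta ring without a summit within 500 bp in either list, is given for contrast, at chr3L:16610419-16610538 on the minus strand.
Prosalpha6: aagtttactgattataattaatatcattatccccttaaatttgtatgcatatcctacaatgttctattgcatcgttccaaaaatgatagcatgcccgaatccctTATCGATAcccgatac
Prosalpha6T: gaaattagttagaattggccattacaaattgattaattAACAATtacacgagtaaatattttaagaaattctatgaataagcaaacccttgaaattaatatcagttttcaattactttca
Prosbeta2: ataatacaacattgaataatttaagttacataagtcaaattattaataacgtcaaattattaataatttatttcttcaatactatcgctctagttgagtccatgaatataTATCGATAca
Prosbeta2R1: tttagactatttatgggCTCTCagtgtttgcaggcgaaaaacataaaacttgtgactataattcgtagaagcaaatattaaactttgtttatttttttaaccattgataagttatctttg
Prosbeta2R2: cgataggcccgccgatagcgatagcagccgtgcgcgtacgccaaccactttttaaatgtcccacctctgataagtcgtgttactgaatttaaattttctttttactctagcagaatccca
Rpn12: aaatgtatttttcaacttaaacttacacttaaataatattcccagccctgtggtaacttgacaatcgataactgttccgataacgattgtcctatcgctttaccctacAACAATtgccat
Rpn12R: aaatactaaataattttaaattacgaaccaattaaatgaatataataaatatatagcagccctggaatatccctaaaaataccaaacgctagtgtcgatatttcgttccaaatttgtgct
Rpn2: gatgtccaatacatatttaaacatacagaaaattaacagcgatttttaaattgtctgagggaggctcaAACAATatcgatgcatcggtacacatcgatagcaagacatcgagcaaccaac
Prosbeta6: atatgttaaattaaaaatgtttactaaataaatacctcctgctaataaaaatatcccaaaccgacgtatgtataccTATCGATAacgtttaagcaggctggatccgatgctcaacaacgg
In the printed promoters of Prosalpha6, Prosbeta2 and Prosbeta6 the 8-base run in capitals is TATCGATA, the DNA replication-related element (DRE), which the factor DREF binds and which is known from promoters of housekeeping genes. In Prosalpha6T and Rpn12 the capitals are an SRY-type HMG-box word (AACAAT), as also in Rpn2, and in Prosbeta2R1 a GAGA word on the opposite strand. Prosbeta2R2 and Rpn12R hold none of the 8 words in the stretch shown, and the DRE of Rpn12 lies outside it, at position -216 from the gene start.

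The DRE word was found at general subunit promoters and at no paralog promoter. In windows from 250 bp before to 50 bp after each RefSeq gene start, with both strands read, TATCGATA was found at 12 of 32 general subunit genes (37.5%), 0 of 16 paralogs and 9.35% of all 13968 protein-coding promoters. Among general subunits it was present at 7 of the 11 with an IDR peak (63.6%) and at 5 of the 21 without one (23.8%). Among all protein-coding genes the corresponding shares were 13.6% of those with an IDR peak and 8.19% of those without. The 7 with both were Prosalpha3, Prosalpha6, Prosbeta2, Rpn3, Rpn12, Rpn13 and Rpt5, and the 5 with the word and no IDR peak were Prosalpha5, Prosbeta1, Prosbeta6, Rpn7 and Rpn9. A match is a description of letters and not a site of binding. Some windows also reach the start of a neighbouring gene on the opposite strand. At Rpn3 the word was at position -197 and the l(2)37Bb start 178 bp upstream, and at Prosbeta1 at position -121 and the Rrp42 start 121 bp upstream. Such a neighbour lay within 500 bp upstream at 18 of 32 general subunits and 2 of 16 paralogs, against 3958 of all 13968 protein-coding genes.

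The other 7 words gave a smaller difference in share between the 2 classes, or none. The core of motif 1 (GGTCACAC), the word of the factor M1BP, was found at 5 of 32 general subunit genes, 0 of 16 paralogs and 7.69% of all promoters. All 5 were among the 21 general subunits without an IDR peak, and none among the 11 with one. For all protein-coding genes the order was the reverse, with 10.4% of those with an IDR peak and 6.95% of those without. With counts this small, no link between the word and the peaks can be read from the general subunits. The antioxidant response element (TGACNNNGC), which the factor cnc binds with maf-S, was found at 5 of 32 general subunits, 1 of 16 paralogs and 8.62% of all promoters. None of those 5 had an IDR peak, but in 500 bp centred on the start the count was 9 of 32, of which 2 had one, against 14.2% of all promoters. In the shorter window it was at 8.38% of all genes with an IDR peak and 8.69% of those without. GAGAG was found at 3 general subunits (9.4%), 6 paralogs (37.5%) and 29.7% of all promoters. The counts were 2 (6.25%), 1 (6.25%) and 19.2% for CACACA, and 1 (3.1%), 1 (6.25%) and 17.6% for CAGCTG. General subunits were thus below all promoters for each of these words. TATAAA was found at 13 general subunits, 5 paralogs and 45.8% of all promoters. The SRY-type word AACAAT was found at 14 of 32 general subunits and 7 of 16 paralogs, which is 43.8% of each class, against 32.1% of all promoters. The counts of the shorter words moved with the window: in the 500 bp window AACAAT was found at 17 general subunits, 11 paralogs and 44.9% of all promoters. GAGAG was found there at 11 general subunits, 7 paralogs and 43.7% of all promoters, and the DRE at 12, 0 and 9.89%.

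**Figure D3:**
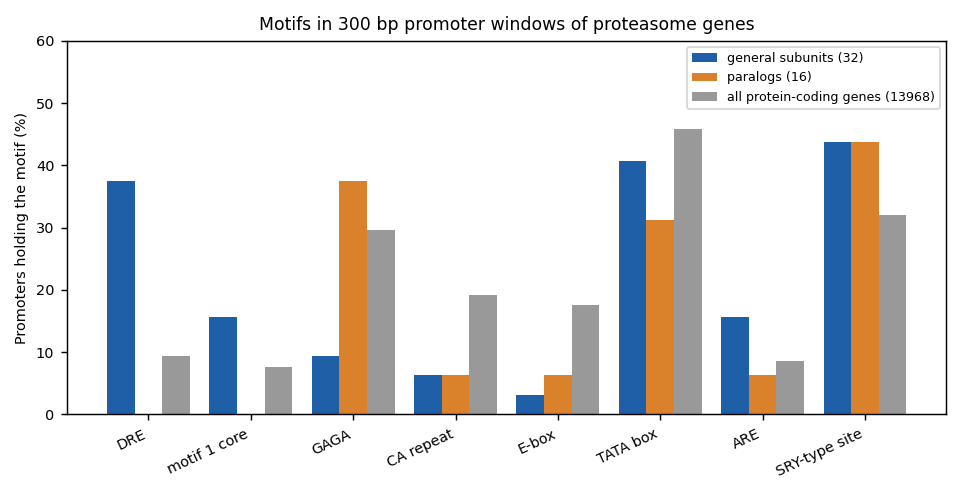
Share of promoter windows (vertical axis, %) that hold each of 8 short motifs (horizontal axis) on either strand, for 32 general subunit genes (blue), 16 paralogs (orange) and 13968 protein-coding genes (grey). The DRE is at 37.5% of general subunits, 0% of paralogs and 9.35% of all genes, while the SRY-type site is at 43.8% of both proteasome classes in this window.

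The 11 IDR peaks at general subunit genes were of ordinary strength for this list. The signal is the authors' enrichment value for a peak, and it is comparable only within a list. Its median over the 11 genes was 146.5 (range 92.1 to 267.4), against 166.0 for all protein-coding genes with an IDR peak (quartiles 120.3 and 270.0). In the pooled list the median over the 26 general subunit genes with a summit was 72.9, that of the 2 paralogs 23.6 and that of all protein-coding genes with a summit 68.7. Prosalpha6 and Rpn2 lay below that lower quartile, and none of the 11 lay above the upper one.

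In the alpha ring, which gates entry to the core, 2 of 7 general genes had an IDR peak and 5 of 7 a pooled summit. Prosalpha3 (FBgn0261394), on chromosome arm 2R, had its peak at chr2R:20994624-20995067 with the summit 54 bp upstream of its own TSS, in intergenic sequence. Its signal was 136.0 in the IDR list, 92.5 in replicate 1 and 44.9 in replicate 3. Prosalpha6 (FBgn0250843), on chromosome arm 2L, had its peak at chr2L:10220988-10221431 with the summit 141 bp upstream of its TSS, inside the 5' UTR of the divergent gene Npc1a, a sterol transporter, whose TSS was 6 bp away. Its signal was 92.1 in the IDR list, the lowest of the 11, with 40.1 in replicate 1 and 55.3 in replicate 3. It was the only one of the 11 with the higher value in replicate 3. Among the 48 genes, Prosalpha2 had the strongest peak that missed the IDR list, with a pooled signal of 86.6 at rank 4846, 154 bp upstream of its TSS, and 39.6 in replicate 1 and 36.4 in replicate 3. Prosalpha4 and Prosalpha7 had pooled signals of 70.5 and 45.7, and the Prosalpha4 summit lay nearer to the start of kat80. Prosalpha1 and Prosalpha5 had no summit within 500 bp in the pooled list.

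The 5 alpha ring paralogs, Prosalpha1R, Prosalpha3T, Prosalpha4T1, Prosalpha4T2 and Prosalpha6T, had no summit within 500 bp in either list, and their nearest pooled summits were 3085 to 6375 bp away. Prosalpha1 and Prosalpha1R are uncertain members. Their proteins were 100% identical over 244 residues, the genes lay 1735 bp apart on chromosome arm 2R, and all 970 of the 32-base words around the Prosalpha1 start recurred within 1000 bp of the Prosalpha1R start. Reads of that length from these copies have no unique place, and whether a peak there went uncounted was not tested. Among all members, at least 95% of the 32-base words around the start were unique in the genome for 28 of 32 general subunits and 15 of 16 paralogs.

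In the beta ring, which carries the proteolytic sites, 1 of 7 general genes had an IDR peak and 5 of 7 a pooled summit. Prosbeta2 (FBgn0023174), on chromosome arm 3L, had its peak at chr3L:14999506-14999949, with the summit in intergenic sequence 223 bp upstream of its TSS and 62 bp from the start of the divergent gene mRpL39, a mitochondrial ribosomal protein. Its signal was 123.6 in the IDR list, 86.6 in replicate 1 and 42.8 in replicate 3. Both other catalytic subunits had only pooled summits: Prosbeta1, the caspase-like subunit, had a signal of 73.9, and Prosbeta5, the chymotrypsin-like subunit, 33.5. Prosbeta1's summit was nearer to Rrp42. Prosbeta3 and Prosbeta7 had pooled signals of 37.9 and 29.7, the Prosbeta3 summit being nearer to Iru. Prosbeta4 and Prosbeta6 had no summit within 500 bp. By its nearest IDR summit, Prosbeta6 was the member just outside the window, with a signal of 177.8 at 1120 bp, and Prosbeta2, at 223 bp, was the member just inside it.

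Of the 6 beta ring paralogs, Prosbeta2R2 alone had a pooled summit, 446 bp upstream, with a signal of 19.2 at rank 29114 of 30000. That summit was nearer to the start of CG1116, at 317 bp, and overlapped no peak in either replicate's own list. Prosbeta2R1, Prosbeta4R1, Prosbeta4R2, Prosbeta5R1 and Prosbeta5R2 had their nearest pooled summits 6086 to 18633 bp away, so the paralogs of both the trypsin-like and the chymotrypsin-like subunit lay far from any listed summit apart from Prosbeta2R2.

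Among the Rpt ATPases, which unfold substrates and thread them into the core, 1 of 6 general genes had an IDR peak and 5 of 6 a pooled summit. Rpt5 (FBgn0028684), on chromosome arm 3R, had its peak at chr3R:23752656-23753099 with the summit in its 5' UTR, 2 bp downstream of its TSS, and the start of RanBP3 lay 44 bp away. Its signal was 155.5 in the IDR list, 112.5 in replicate 1 and 41.9 in replicate 3. Rpt3, Rpt1, Rpt6 and Rpt2 had pooled signals of 69.0, 65.3, 34.9 and 28.0, the Rpt3 summit being nearer to CG11122, and Rpt4 had none. Of the 3 ATPase paralogs, Rpt3R had a pooled summit 15 bp from a TSS with a signal of 28.1 at rank 19155, which overlapped a peak of signal 17.1 in replicate 3 and none in replicate 1. It was the only paralog with a summit in either replicate's own list. Rpt4R and Rpt6R had their nearest pooled summits at 2969 and 4291 bp.

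In the rest of the base, Rpn2 and Rpn13 had IDR peaks, 2 of 4 general genes, and 3 of 4 had a pooled summit. Rpn2 (FBgn0028692), the scaffold partner of Rpn1, is on chromosome arm 3R with its peak at chr3R:29153251-29153694 and the summit 51 bp upstream of its TSS. Its signal was 107.3 in the IDR list, 55.8 in replicate 1 and 52.4 in replicate 3, at ranks 4227 and 3261 of those lists. Rpn13 (FBgn0033886), a ubiquitin receptor that also recruits the deubiquitinase Uch-L5, is on chromosome arm 2R with its peak at chr2R:13960234-13960677 and the summit 52 bp upstream of its TSS. Its signal was 155.8, with 85.4 in replicate 1 and 78.6 in replicate 3. Rpn10, another ubiquitin receptor, had a pooled signal of 45.6 at 12 bp. Rpn1 had no summit within 500 bp, nor did Rpn13R, whose nearest pooled summit was 4951 bp away.

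The lid had the highest counts, with an IDR peak at 5 of 8 general genes and a pooled summit at all 8. The shares of all protein-coding genes were 21.4% and 55.8%, and the lid's median pooled signal was 138.8. By rank in replicate 3, only Rpn5 and Rpn3 of these 5 stood among the strongest 4574 peaks. Rpn6 (rank 5038), Rpn12 (5817) and Rpn11 (11698) did not. Rpn5 (FBgn0028690), one of the horseshoe of scaffold subunits, had the strongest proteasome peak, at chr3R:5789119-5789323, with the summit 237 bp upstream of its TSS inside an intron of Hat1, a histone acetyltransferase gene whose TSS was 128 bp away. Its signal was 267.4 at rank 847 of 4574, with 157.2 in replicate 1 and 111.3 in replicate 3, and a second IDR summit lay 36 bp from its TSS with a signal of 110.1. Rpn5 ranked 843 in replicate 1 and 854 in replicate 3, so both replicates placed it alike.

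Rpn3 (FBgn0261396), another horseshoe subunit, on chromosome arm 2L, had its peak at chr2L:19051600-19052043 with the summit in its own 5' UTR, 32 bp downstream of its TSS. Its signal was 157.4, with 90.5 in replicate 1 and 69.8 in replicate 3. Rpn6 (FBgn0028689), the lid subunit that clamps onto the core, on chromosome arm 2R, had its peak at chr2R:14752175-14752618 with the summit in one of its own introns, 126 bp upstream of an internal TSS and 124 bp from that of ave. Its signal was 151.8, with 111.9 in replicate 1 and 39.8 in replicate 3. By rank, Rpn3 stood at 2106 in replicate 1 and 1979 in replicate 3, whereas Rpn6 stood at 1510 in replicate 1 and 5038 in replicate 3.

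Rpn11 (FBgn0028694), the deubiquitinase, on chromosome arm 2L, had its peak at chr2L:5059783-5060226 with the summit 215 bp upstream of its TSS. Its signal was 146.5, with 125.7 in replicate 1 and 22.3 in replicate 3. By rank this was the widest split among the 11, since Rpn11 stood at 1244 in replicate 1 against 11698 in replicate 3. Rpn12 (FBgn0028693), on chromosome arm 3L, had its peak at chr3L:16582663-16583106 with the summit 143 bp upstream of its TSS and a signal of 131.1, with 88.0 in replicate 1 and 36.2 in replicate 3. Rpn8, the partner of Rpn11, had a pooled signal of 72.0 nearer to the start of Slik, Rpn7 had 27.2, and Rpn9 had 24.6. Rpn12R had its nearest pooled summit 6652 bp away.

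**Figure D4:**
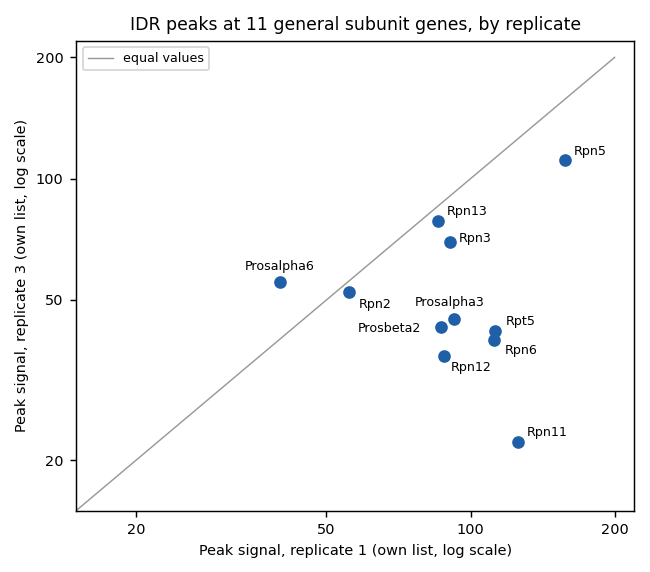
Peak signal in replicate 1 (horizontal axis) and replicate 3 (vertical axis), each from that replicate's own list and on a log scale, at the 11 general subunit genes with an IDR peak, with a grey line where both would be equal. The lists are not scaled to each other. Only Prosalpha6 lies above the line, and Rpn11 lies farthest below it.

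Across the 11 IDR peaks, signal was higher in replicate 1 at 10 and in replicate 3 at 1, with medians of 90.5 in replicate 1 and 44.9 in replicate 3. Since the replicates' lists were not scaled to each other, ranks were also read. Replicate 1 gave the higher rank at 7 of the 11 and replicate 3 at 4, namely Prosalpha6, Rpn2, Rpn3 and Rpn13. By rank, 10 of the 11 stood among the strongest 4574 peaks of replicate 1, 7 among those of replicate 3 and 6 among those of both. With those strongest peaks of 1 replicate in place of the IDR list, general subunits with a summit numbered 12 in replicate 1, against 21.7% of all genes, and 7 in replicate 3 (21.9%, against 20.8% of all genes), with 0 paralogs in each. In replicate 3 alone the general subunits were thus at the background at this depth of list. Counting summits in each replicate's own list, 27 of 32 general subunit genes (84.4%) had one in replicate 1 and 22 (68.8%) in replicate 3, against 0 and 1 of 16 paralogs and 55.3% and 54.0% of all protein-coding genes. Both replicates had a summit at 21 general subunits (65.6%), 0 paralogs and 46.9% of all genes. In these full lists general subunits were above all genes and paralogs below in each replicate, with the wider gap in replicate 1.

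Of the 11 genes with an IDR peak, 8 encode the regulatory particle and 3 the core. In the regulatory particle these were 1 of 6 ATPase genes, 2 of 4 other base genes and 5 of 8 lid genes. In the core they were 2 of 7 alpha ring genes (28.6%) and 1 of 7 beta ring genes (14.3%), on either side of the 21.4% of all protein-coding genes. All 6 members at or above the median signal of the IDR list, 145.9, were subunits of the base or lid (Rpn5, Rpn3, Rpn13, Rpt5, Rpn6 and Rpn11), and Rpn2, Rpn12 and the 3 core particle members lay below it. This is a description of few genes, and it depended on the list: in replicate 1 the core member Prosalpha3, at rank 2044, stood above Rpn3 at 2106 and Rpn13 at 2303. With the stronger 50% of the IDR peaks these 6 genes were the count, against 12.8% of all protein-coding genes. The 15 general subunits with only pooled summits had signals from 24.6 to 86.6, with a median of 45.6. Of these 15, 14 overlapped a peak in replicate 1, 11 in replicate 3 and 10 in both. The pooled list was made from these same replicates, and the share over all genes with only pooled summits was not computed. The overlap is therefore no separate support for these peaks.

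Most summits lay upstream of a TSS of the gene, as did most of those at all protein-coding genes. Relative to the TSS nearest to it, the strongest summit was upstream at 9 of 11 general subunit genes in the IDR list (81.8%), against 85.3% of all protein-coding genes with an IDR peak, and at 23 of 26 in the pooled list (88.5%), against 74.4% of all. Some of these TSSs are internal, as at Rpn6. Relative to the most upstream TSS, the summit was upstream at 8 of 11 general subunits in the IDR list (72.7%), against 69.8% of all, and at 19 of 26 in the pooled list (73.1%), against 62.9% of all. The median distance of the IDR summits was 126 bp for general subunits and 145 bp for all genes. Of the 11 summits, 6 were intergenic, 3 were in a 5' UTR and 2 in an intron. No general subunit on the X chromosome (Prosalpha4, Rpt3, Rpt4 and Rpt6) had an IDR peak, against 14.0% of X-linked protein-coding genes, while 3 of these 4 had a pooled summit, against 54.8% of X-linked genes.

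**Figure D5:**
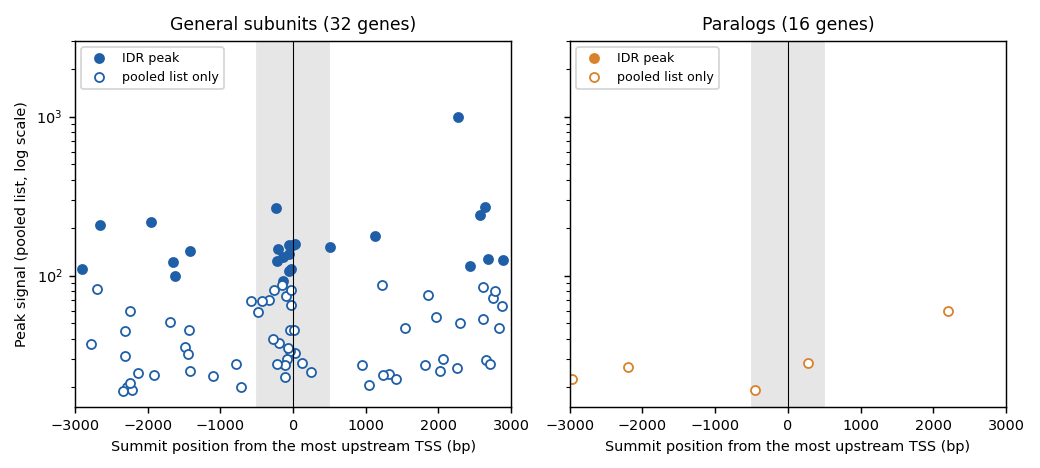
Position of every pooled summit within 3000 bp of the most upstream TSS (horizontal axis, bp, negative values upstream) against its signal (vertical axis, log scale), for general subunits (left) and paralogs (right); filled circles are in the IDR list and the grey band marks 500 bp on each side. General subunits have 88 summits, 25 of them in the IDR list and many just upstream of the TSS, and paralogs have 5, none in the IDR list.

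Many of the peaks cannot be assigned to a proteasome gene alone. At 9 of the 11 IDR summits the TSS of another protein-coding gene also lay within 500 bp, and at 4 of them (Prosalpha6, Prosbeta2, Rpn5 and Rpn6) that other TSS was the nearer one. The other genes were dgt3, Npc1a, mRpL39, CtsL1, Slbp, l(2)37Bb, Hat1, ave and RanBP3, and Rpn11 and Rpn12 had none. The share of shared summits over all genes was not computed, so the 9 of 11 cannot be called particular to proteasome genes. Of all 2996 protein-coding genes with an IDR peak, 1577 had an opposite-strand TSS within 500 bp upstream of the gene, as did 7 of the 11. Gene arrangement differed between the classes as well. A TSS on the opposite strand lay within 500 bp upstream at 18 of 32 general subunit genes and 2 of 16 paralogs, against 3958 of all 13968 protein-coding genes. General subunits thus had such a neighbour more often than all genes, and paralogs less often. The median distances were 392.5 bp for general subunits and 5678.5 bp for paralogs. Among genes with such a neighbour, 7 of 18 general subunits (38.9%) and 0 of 2 paralogs had an IDR peak, against 39.8% of all, so the general subunits were at the background there. Among genes without such a neighbour, 4 of 14 general subunits (28.6%) and 0 of 14 paralogs had an IDR peak, against 14.2% of all, and 11 of 14 general subunits and 1 of 14 paralogs had a pooled summit, against 47.2% of all. In the pooled list the classes thus differed among genes without a divergent neighbour, while only 2 paralogs had such a neighbour. How much of the gap in either list goes with the neighbour was not tested.

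Gene structure differed in the same direction. A single coding exon was found in 4 of 32 general subunit genes and 6 of 16 paralogs, against 3074 of all 13968 protein-coding genes. Of all protein-coding genes with 1 coding exon, 14.4% had an IDR peak, against 23.4% of those with several. General subunits with several coding exons had 10 IDR peaks and 22 pooled summits among 28 genes, and paralogs with several had 0 and 2 among 10, beside a pooled summit at 60.7% of all genes with several. Inside another gene lay 1 general subunit gene (Rpt1, in CG17985) and 3 paralogs (Prosalpha4T1, Rpn12R and Rpn13R). The part of coding exons and host genes in the counts was not tested.

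Set out as pairs, the 16 paralogs belong to 12 general subunit genes. In the pooled list only the general member of a pair had a summit in 10 of 16 pairs, both had one in 2, neither in 4 and only the paralog in 0. The general gene was the nearer to a pooled summit in 14 pairs and the paralog in 2 (Rpt3R and Rpt4R). Of general genes, 5 of 12 with a paralog and 6 of 20 without one had an IDR peak, and 9 of 12 and 17 of 20 had a pooled summit. Protein identity between the members of a pair ran from 38.4% (Rpn13 with Rpn13R) to 100% (Prosalpha1 with Prosalpha1R), with a median of 60.6%. The ATPase paralogs were among the closest, at 88.7% for Rpt6R, 82.1% for Rpt4R and 81.7% for Rpt3R, followed by Prosalpha4T1 at 75.1%. Rpt6R, the closest of these, had no summit within 500 bp, and Rpt6 had one with a pooled signal of 34.9.

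Other genes of the pathway were more like the general subunits than the paralogs. Of 28 listed genes for proteasome assembly and regulation, ubiquitin supply and delivery, proteasome deubiquitinases and the COP9 signalosome, a complex built like the lid, 9 had an IDR peak (32.1%, against 21.4% of all protein-coding genes) and 26 a pooled summit (92.9%, against 55.8%). In assembly and regulation, 3 of 6 had an IDR peak: PI31, a proteasome regulator, with a signal of 112.3, ntc, its F-box partner in sperm maturation, with 190.4 at a summit nearer to IntS10, and cnc, the transcription factor that induces proteasome genes under stress, with 162.5. In ubiquitin supply and delivery, 2 of 11 did: Ubi-p63E, the polyubiquitin gene, with 273.7, and RpS27A, a ubiquitin fusion, with 252.8 at a summit as close to Ip259. Uch-L5 had 102.4 and Usp14 no IDR peak. In the COP9 signalosome 3 of 9 did: alien (CSN2) with 259.8 nearer to CG18661, CSN5, the deneddylase of the complex, with 117.7 nearer to CG42232, and CSN3 with 91.4. In the replicates' own lists, Ubi-p63E had 168.1 in replicate 1 and 102.6 in replicate 3, and cnc 97.9 and 70.9. Rpn13 and Uch-L5, the receptor and the enzyme it recruits, both had an IDR peak, as did PI31 and ntc. Other partners were split: cnc and Rpn11 had an IDR peak, and their partners maf-S and Rpn8 had none.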

How the data were processed

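ChIP-seq for GFP-tagged tHMG1 in whole adult males gave 2 biological replicates in 1 group. The deposited files are peak lists: 1 per replicate, 1 for the pooled replicates and 1 after IDR, of which those on dm6 were used; the dm3 lists were not used. Per the submitters' file notes, the IDR list was made from both replicate lists and the pooled list. No source used here gives the aligner, the peak caller or the IDR threshold. The signal of a peak is the authors' deposited enrichment value and is not scaled between lists. The deposited −log10 q values took 1 shared value over the IDR peaks and were not used for ranking. The 4574 IDR peaks are the strongest of the pooled list. Depth per sample is unknown, so no interval for reads is given; exact (Clopper-Pearson) 95% intervals refer to numbers of genes.

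Genes, TSSs and exons were those of Ensembl release 115 on the chromosome arms, and sequence was that of RefSeq Release 6. A summit within 500 bp of any TSS counted for a gene, and the strongest such peak gave its signal. In a replicate's list the overlapping peak with the nearest summit was read. Proteins were translated from the longest coding sequence and aligned globally. In 46 of 48 members that sequence was a full reading frame, and the other 2 (Rpn2 and Rpn8) have no paralog. With 1 group and lists chosen with results in view, no test was made, and counts stand beside those of all protein-coding genes. The assignment of summits was tested with 200 simulated summits planted at known places near TSSs, and the calls matched a direct count of distances, most genes having no planted summit near them. Python 3.11.15, numpy 2.4.6, pandas 2.3.3, scipy 1.17.1, Biopython 1.88 and matplotlib 3.10.9 were used.

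The members, the pathway list, the motifs and the alternatives were chosen with earlier results of these data known. Every member is accounted for. Values are given in full for members with an IDR summit, the member just outside the window and the strongest pooled-only member. A gene that is no member is named where its TSS is near a named summit or where it is in the pathway list with an IDR summit. Of 29 pathway genes listed, 28 were matched to the annotation, and PA200 was not analysed here. Alternatives were windows of 250 and 1000 bp, the stronger 50% of the peaks, 1 TSS per gene, any base of a peak in the window, each replicate alone and other promoter windows. Leaving out Prosalpha1 and Prosalpha1R was chosen after seeing the data.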

Additional observations from a re-analysis of the deposited data

How the results depend on the processing

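The contrast between general subunits and paralogs held its order under every alternative run, with paralogs at 0 of 16 in the IDR list each time. The IDR summit nearest to any paralog was 3396 bp away. The alternatives of window, TSS, peak overlap and peak strength therefore could not change that 0, and only those of 1 replicate could. General subunit genes with an IDR peak numbered 11 with windows of 250 or 1000 bp or with any base of a peak in the window, and 10 with 1 TSS per gene. No member had its nearest IDR summit between 223 and 1120 bp, so the change of window could not move the 11. With the stronger 50% of the IDR peaks the count was 6, against 12.8% of all protein-coding genes, since fewer peaks were used. With each replicate's own strongest 4574 peaks it ran from 7 of 32 (21.9%, without replicate 1, against 20.8% of all genes) to 12 (without replicate 3, against 21.7%), so without replicate 1 the general subunits stood at the background in the IDR-sized list. Pooled summits at general subunits ran from 20 of 32 with the stronger 50% of the peaks (against 43.6% of all genes) to 27 without replicate 3 (against 55.3%). At paralogs they numbered 1 with the 250 bp window and 0 with the stronger 50% of the peaks, and ran from 0 (without replicate 3) to 1 (without replicate 1). Pathway genes with an IDR peak were 5 of 28 with the stronger 50% of the peaks (against 12.8% of all genes) and 6 to 12 otherwise. The 6 were with the 250 bp window (against 17.4%) and the 12 without replicate 3 (against 21.7%). Without replicate 1 there were 7, against 20.8%. The median signal of bound general subunits was 55.3 without replicate 1 and 89.2 without replicate 3, on the scale of each remaining list; no value was computed with any base of a peak in the window. Without Prosalpha1 and Prosalpha1R the IDR counts were 11 of 31 general subunits and 0 of 15 paralogs, and the pooled counts 26 and 2. The DRE counts, 12 general subunits and 0 paralogs, were the same in a 500 bp window centred on the start and in a window around the Ensembl start, while in the 500 bp window GAGAG was at 11 general subunits and TGACNNNGC at 9, against 3 and 5 in the shorter one; the cause was not tested for any of these.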
